A study of Mus musculus with 6 samples.

Results

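Respiratory complex I genes were examined in inguinal white adipose tissue, the subcutaneous fat depot of the mouse groin, after cold stimulation. The members were taken by name: all 42 genes whose symbol starts with Nduf, of 17342 named genes in the tables, and all 42 had a mean of at least 1 FPKM over the 6 libraries. FPKM counts the fragments of a gene relative to the length of its transcript and to the total of mapped fragments in the library. The least abundant member was Ndufa4l2 at a mean of 6.10 FPKM, so no member lay near the threshold and none fell outside it. Libraries came from 8-week-old mice of strain C57BL/6, 3 from wild-type (WT) mice, numbered 1 to 3, and 3 from Rarres2-/- mice, numbered 4 to 6, in which the gene of the secreted adipokine chemerin is disrupted. All 6 libraries were from cold-stimulated fat, and no unstimulated fat was analysed here. The temperature and length of the cold, the sex of the mice, the deleted part of Rarres2 and whether each library came from its own mouse were not stated in the sources used here. If libraries share mice, p-values measure only a technical spread.

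Complex I is the NADH:ubiquinone oxidoreductase of the inner mitochondrial membrane and the entry point of the respiratory chain for electrons from NADH. It is L-shaped. In the matrix arm, the N module oxidises NADH and passes electrons along iron-sulfur clusters to the Q module, which reduces ubiquinone. The membrane arm pumps protons, and its innermost subunits are encoded by mitochondrial DNA, while nuclear genes encode the catalytic subunits of the matrix arm and a large set of accessory subunits. Assembly factors help to build the complex and are not part of the finished enzyme. In fat exposed to cold, respiratory chain genes are known for their role in beige adipocytes, where uncoupled respiration produces heat. The 42 members comprised 10 genes of the N module, 6 of the Q module, 9 of the proximal and 11 of the distal membrane arm, 4 assembly factors named Ndufaf, and the pair Ndufa4 and Ndufa4l2. Mitochondrially encoded subunits had 0 of 7 genes with a row, so the core of the membrane arm was not analysed here.

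Rarres2 itself, which checks the genotype labels, was at 436, 610 and 505 FPKM in WT and, in Rarres2-/- replicates 4, 5 and 6, 0.260, 6.35 and 1.41 FPKM. Depth can only be given relative to WT replicate 2, from the spacing of the lowest values, and was 0.496 in WT replicate 1, 0.70 to 0.731 in Rarres2-/- replicates 5 and 6, and 1.01 in WT replicate 3 and Rarres2-/- replicate 4. WT replicate 1 and Rarres2-/- replicate 4 stood apart from the other libraries. In WT replicate 1 the small nucleolar RNA gene Snord2 held 62.1% of summed FPKM, and skeletal muscle and endothelial markers were at their highest. In Rarres2-/- replicate 4, short transcripts were low across all genes. Counts and medians of the modules and of the family are therefore also given without Rarres2-/- replicate 4, and those of the family without both.

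Complex I genes were abundant in this fat. Their median level was 305 FPKM, against 9.35 FPKM over the 11086 genes that reached that mean and were tested, and 34 of the 42 members exceeded 100 FPKM, as did 7.52% of those genes. Their summed level was 17363, 12996 and 12975 FPKM in WT replicates 1, 2 and 3 and 7604, 15774 and 18983 FPKM in Rarres2-/- replicates 4, 5 and 6. The Rarres2-/- libraries thus held both the lowest and the highest sum, and the genotypes overlapped. As a share of the summed FPKM of protein-coding genes, the members made up 2.98%, 2.32% and 2.36% in WT and 1.75%, 2.62% and 2.91% in Rarres2-/-, with Rarres2-/- replicate 4 again the lowest and WT replicate 1 here the highest. In bulk tissue, fewer cells of a type and less RNA per cell cannot be told apart.

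**Figure D1:**
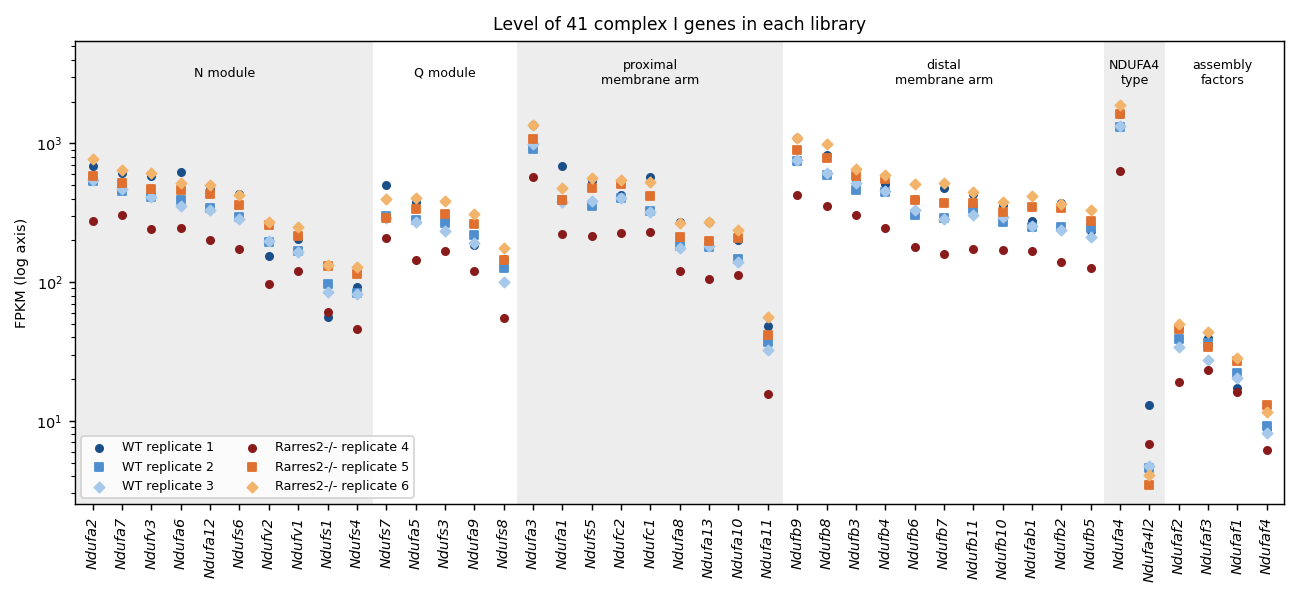
FPKM (log axis) of 41 of the 42 complex I genes in each of the 6 libraries, 1 point per library, grouped by module and ordered by mean level. Rarres2-/- replicate 4 (dark red circles) is the lowest point for 39 of these 41 genes, and Ndufa4l2, the Ndufaf assembly factors and the subunit Ndufa11 have the lowest mean levels.

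By genotype, no complex I gene passed the test. With limma on log2(FPKM + 1), where the added 1 shrinks differences of weakly expressed genes, 0 of 42 members and 0% of 11086 genes had an adjusted p under 0.05 (Benjamini-Hochberg). At an unadjusted p under 0.05 there were 0 members, against 3.93% of all genes. The groups were separated, with all 3 libraries of a genotype above all 3 of the other, in 0 members and in 10.3% of all genes. Members had a higher mean log2 value in Rarres2-/- in 11 cases and a lower one in 31, where 48.6% of all genes were higher. The median difference, Rarres2-/- minus WT, was -0.11 on the log2 scale over the members, with a range from -0.46 to 0.40, and -0.01 over all genes. Each member's adjusted p by limma was 0.999.

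With all 6 libraries, most members shared the library in which they were lowest, and no genotype difference passed the test. Each member's log2 value was set against its own mean over the 6 libraries. The median of these deviations over members was 0.32, -0.08 and -0.10 in WT replicates 1, 2 and 3, and -0.84, 0.23 and 0.47 in Rarres2-/- replicates 4, 5 and 6, while the medians over all genes lay between -0.04 and 0.02. With quantile normalization, the medians over members were -0.46, 0.10 and 0.22 in Rarres2-/- replicates 4, 5 and 6. In WT replicates 1, 2 and 3 they were then 0.31, -0.07 and -0.06, so WT replicate 1 and not Rarres2-/- replicate 6 had the highest median. Rarres2-/- replicate 4 held the lowest value of 40 of the 42 members, against 28.5% of all genes, and 1 member, Ndufa4l2, lay above its own mean there. In the values as deposited, Rarres2-/- replicate 6 was highest for 30 members, WT replicate 1 for 11 and Rarres2-/- replicate 5 for 1. Over all genes these shares were 19.4%, 24.0% and 16.3%, and the 11 members in WT replicate 1 are 26.2% of the family, near the share of all genes. The ratio of Rarres2-/- replicate 4 to the WT mean had a median of 0.533 over members and ran from 0.396 (Ndufa11) to 0.909 (Ndufa4l2).

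Most members kept close to the family's median across libraries. The median SD of a member's log2 value over the 6 libraries was 0.49, against 0.25 over all genes. After the library median of the members was subtracted, it was 0.13, and 33 members had a residual SD under 0.2. This subtraction was not made for other genes, so the 0.13 cannot be set against the 0.25. Ndufa12, an accessory subunit at the junction of the N and Q modules, followed the family most closely with a residual SD of 0.02. The least close were Ndufa4l2 (0.80), Ndufs1 (0.49), Ndufaf1 (0.35) and Ndufv2 (0.31). Residuals of Ndufs1, Ndufv2 and Ndufaf1 were lowest in WT replicate 1, at -0.98, -0.58 and -0.62.

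**Figure D2:**
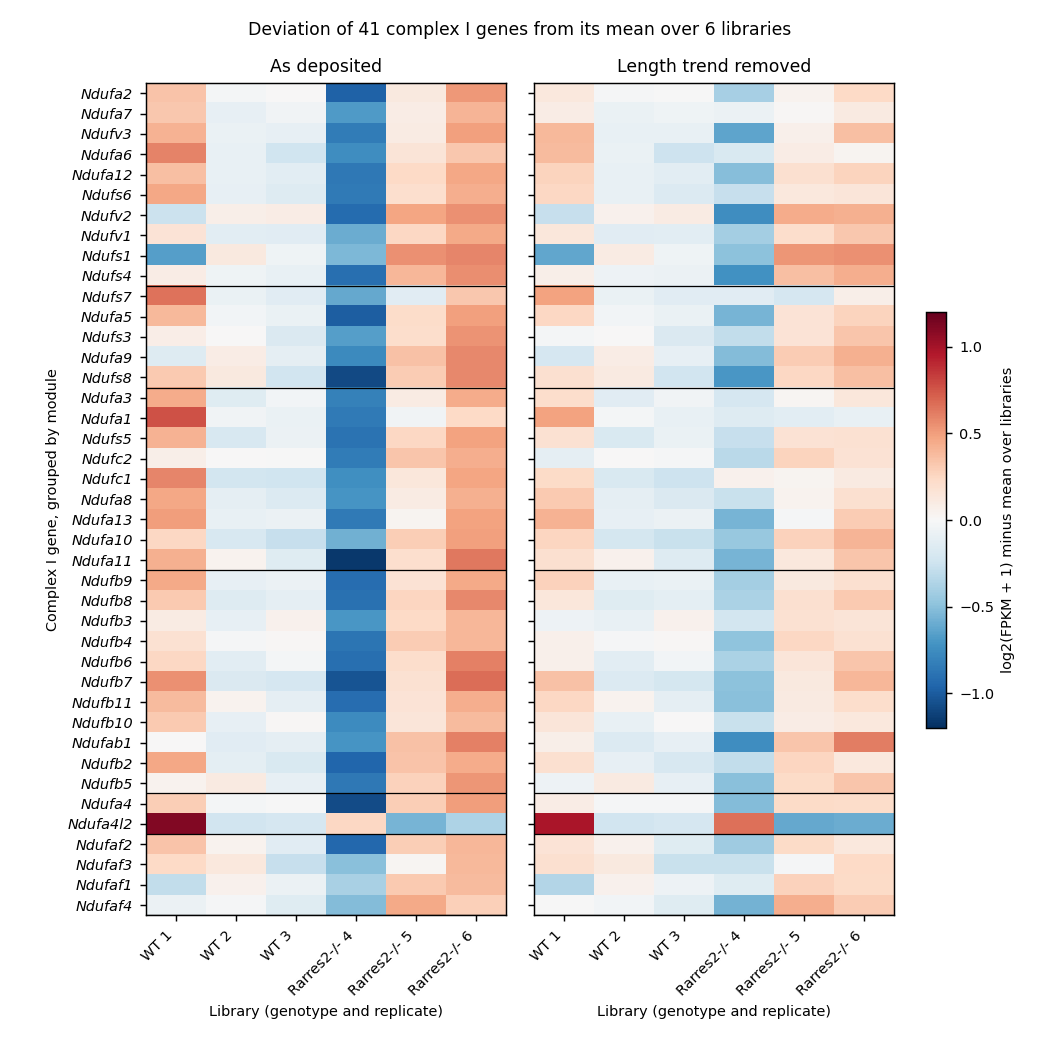
Deviation of 41 of the 42 complex I genes (rows, grouped by module) from their own mean log2(FPKM + 1) over the 6 libraries (columns), as deposited (left) and after the trend with transcript length was removed (right), with blue for lower and red for higher. The column of Rarres2-/- replicate 4 is blue for 40 of these 41 genes as deposited and paler after the trend was removed, and Ndufa4l2 runs against most other rows in the Rarres2-/- columns.

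Because most members moved together, the promoters of the family were searched for letters bound by factors that are textbook regulators of nuclear respiratory genes. RefSeq promoters (GRCm38.p6, 250 bases before to 50 after the start) were found for 37 of the 42 members. Both strands were read for the core of nuclear respiratory factor 1 (NRF1), GCGCATGC, the core of ETS factors such as GABP, CCGGAAGT, the core of estrogen-related receptors (ERR), TCAAGGTCA, and the core of YY1, AAGATGGC. GCGCATGC read on both strands can match overlapping bases, as it does in Ndufaf4 and Ndufa11. A match is a description and not a site, and no match says only that these letters are not in this window. At least 1 of the motifs was found in 12 members, and 25 held none. The ERR core was found in 0 members (0.423% of all 32851 promoters) and the ETS core in 1, Ndufs3 (2.70% of members, 3.89% of all promoters, and 9.23% of the promoters of tested genes).

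The NRF1 core was found in 4 of 37 members (10.8%), against 2.71% of all promoters and 6.20% of those of tested genes. The members were Ndufa6, Ndufa8, Ndufa11 and Ndufaf4. The 250 bases before the start of Ndufaf4 (chr4:24897833-24898082, plus strand, GRCm38.p6) hold no annotated exon and are shown as the example of a promoter with this core, in capitals, here on both strands. The other 3 are shown with 8 bases on each side. All are written 5′ to 3′ on the strand of the gene, at chr15:82354359-82354382 (minus) for Ndufa6, chr2:36049331-36049354 (minus) for Ndufa8 and chr17:56717694-56717717 (plus) for Ndufa11.
Ndufaf4: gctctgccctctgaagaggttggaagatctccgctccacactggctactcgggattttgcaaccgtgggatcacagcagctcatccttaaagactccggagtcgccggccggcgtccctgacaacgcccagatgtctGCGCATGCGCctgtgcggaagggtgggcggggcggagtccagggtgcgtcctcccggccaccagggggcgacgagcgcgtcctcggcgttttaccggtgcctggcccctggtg
Ndufa6: gcggtagaGCATGCGCattgcaga
Ndufa8: ctggagacGCATGCGCagatggta
Ndufa11: tgcactgcGCGCATGCgcgcacgc
A further match in Ndufaf4 begins 2 bases after the start. These 4 genes had mean levels from 9.44 FPKM (Ndufaf4) to 432 FPKM (Ndufa6). Each was lowest in Rarres2-/- replicate 4, as were 40 of the 42 members.

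The YY1 core was found in 7 of 37 members (18.9%), against 2.75% of all promoters and 5.28% of those of tested genes. All 7 matches lay on the gene's strand, 23 to 39 bases after the start, and in all 7 the ATG inside the motif is an annotated start codon in GENCODE M21, so the match also spells the beginning of the coding sequence. The sequences are shown because they put the same letters at the same place in genes of 4 different modules. Capitals mark the motif, and positions are given on GRCm38.p6: Ndufa3 chr7:3617387-3617410 (plus), Ndufa9 chr6:126849100-126849123 (minus), Ndufb8 chr19:44555393-44555412 (minus), Ndufc1 chr3:51408918-51408941 (minus), Ndufs4 chr13:114388045-114388067 (minus), Ndufs6 chr13:73328434-73328457 (minus) and Ndufs7 chr10:80249465-80249488 (plus).
Ndufa3: ccaagaacAAGATGGCcgggagta
Ndufa9: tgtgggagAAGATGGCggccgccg
Ndufb8: agaaggtgAAGATGGCtgcc
Ndufc1: tgcggaacAAGATGGCgccgtccg
Ndufs4: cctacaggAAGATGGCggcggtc
Ndufs6: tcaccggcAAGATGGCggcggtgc
Ndufs7: ccgaggccAAGATGGCggcgctgg
Whether any factor binds at these letters was not measured. All 7 were lowest in Rarres2-/- replicate 4, as were 40 of the 42 members and 28.5% of all genes.

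In the N module, the tip of the matrix arm, 4 of 10 genes had a higher mean log2 value in Rarres2-/- and 6 a lower one (median difference -0.11). Without Rarres2-/- replicate 4 all 10 were higher (0.28). Ndufv1 encodes the subunit that binds NADH and the flavin cofactor (chromosome 19, 4007384 to 4012806, minus strand, GRCm38). Its level was 203, 166 and 165 FPKM in WT and, in Rarres2-/-, 119, 216 and 249 FPKM. The Rarres2-/- libraries lay on both sides of WT, and the difference was 0.07 (SE 0.298). Ndufv2, its iron-sulfur partner (chromosome 17, 66078638 to 66101559, minus strand), was at 155, 194 and 197 FPKM in WT and, in Rarres2-/-, 96.9, 258 and 271 FPKM. Here Rarres2-/- replicate 4 lay below and replicates 5 and 6 above all WT libraries, with a difference of 0.07 (SE 0.406).

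Ndufs1 encodes the largest core subunit, which carries electrons away from the flavin through iron-sulfur clusters (chromosome 1, 63143596 to 63176833, minus strand). It had the largest positive difference of the family, 0.40 (SE 0.364, adjusted p = 0.999 by limma). The values were 55.7, 96.6 and 85.4 FPKM in WT and, in Rarres2-/-, 60.7, 131 and 134 FPKM. It was the only member of the 42 whose lowest library was WT replicate 1, and its Rarres2-/- libraries lay both among and above the WT libraries. Without WT replicate 1 the difference was 0.17, and without Rarres2-/- replicate 4 it was 0.77 (SE 0.25, adjusted p = 0.400 by limma). The other 7 genes of the module had means from 91.1 FPKM (Ndufs4, an accessory subunit that stabilises the tip) to 566 FPKM (Ndufa2, a small subunit with a thioredoxin-like fold). Each of these 7 was lowest in Rarres2-/- replicate 4.

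In the Q module, 3 of 6 genes were higher and 3 lower in Rarres2-/- (median difference -0.06), and without replicate 4 it was 5 of 6 (0.37). Ndufs7, which carries the terminal iron-sulfur cluster beside the ubiquinone pocket (chromosome 10, 80249121 to 80256794, plus strand), was at 500.3, 300.1 and 290.3 FPKM in WT and, in Rarres2-/-, 207, 289 and 397 FPKM. WT replicate 1 was far above the other WT libraries, and the difference of -0.29 (SE 0.326) was -0.04 without it and -0.05 without Rarres2-/- replicate 4. Ndufs7 was among the 3 members that kept a lower mean in Rarres2-/- when replicate 4 was left out, with Ndufa1 and Ndufa4l2.

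Ndufs3, a core subunit present in the earliest assembly intermediates (chromosome 2, 90894634 to 90904827, minus strand), was at 282, 267 and 235 FPKM in WT and, in Rarres2-/-, 168, 309 and 386 FPKM, a difference of 0.06 (SE 0.321). Ndufs8, which holds iron-sulfur clusters on the way to ubiquinone (chromosome 19, 3908863 to 3912774, minus strand), was at 146, 127 and 100.3 FPKM in WT and, in Rarres2-/-, 55.0, 145 and 176 FPKM, a difference of -0.13 (SE 0.435). Both genes had Rarres2-/- replicate 4 as the lowest and replicate 6 as the highest library. Among the accessory genes, Ndufa5 had a mean of 302 FPKM and a difference of -0.18, and Ndufa9, which binds a pyridine nucleotide at the junction with the membrane arm, had a mean of 214 FPKM and a difference of 0.11. As a set, the 7 nuclear core subunits of the N and Q modules had 5 higher and 2 lower means in Rarres2-/- (median difference 0.06), and 6 higher without replicate 4 (0.39).

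In the proximal membrane arm, which adjoins the matrix arm, 1 of 9 genes was higher in Rarres2-/- (Ndufa10, 0.14) and 8 were lower (median difference -0.12). With replicate 4 left out, 8 of the 9 were higher (0.26). Ndufa1, a small single-pass subunit needed to build the membrane arm (chromosome X, 37187588 to 37191163, minus strand), had the smallest p of the family. It was at 685, 389 and 380.2 FPKM in WT and, in Rarres2-/-, 223, 391 and 475 FPKM. WT replicate 1 was the highest and Rarres2-/- replicate 4 the lowest library, and of the other 4 libraries both Rarres2-/- ones lay above both WT ones, by as little as 391 against 389 FPKM. The difference of -0.43 (SE 0.367, adjusted p = 0.999 by limma) was -0.15 without WT replicate 1, -0.11 without Rarres2-/- replicate 4 and 0.16 without both.

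Ndufa3, a small accessory subunit of the same arm (chromosome 7, 3617373 to 3620327, plus strand), was among the 3 most abundant members. Its values were 1365, 904 and 983 FPKM in WT and, in Rarres2-/-, 569, 1077 and 1364 FPKM, so the highest library of each genotype was level. The difference was -0.18 (SE 0.369). Ndufc1, which had the shortest transcript of the family at 315 bases (chromosome 3, 51404677 to 51408988, minus strand), was at 575, 328 and 322 FPKM in WT and, in Rarres2-/-, 228, 421 and 529 FPKM, a difference of -0.08 (SE 0.383). Ndufa11, a membrane subunit near the contact with complex III, lay furthest below its mean in Rarres2-/- replicate 4, at 15.5 FPKM against a WT mean of 39.3 FPKM. WT replicate 1 was the highest library for 5 of the 9 genes of this arm, against 24.0% of all genes, a count that was not tested.

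In the distal membrane arm, at the far end of the proton-pumping machinery, 1 of 11 genes was higher in Rarres2-/- (Ndufab1, 0.16) and 10 were lower (median difference -0.11). Leaving out replicate 4 turned this to 11 of 11 higher (0.34). Ndufb9, an accessory subunit of the LYR family (chromosome 15, 58933756 to 58939488, plus strand), was the most abundant gene of the arm, at 1094, 748 and 759 FPKM in WT and, in Rarres2-/-, 424, 904 and 1092 FPKM, a difference of -0.19 (SE 0.391). Ndufab1, the mitochondrial acyl carrier protein, also serves fatty acid synthesis in the organelle (chromosome 7, 122085403 to 122101886, minus strand). It was at 275, 249 and 255 FPKM in WT and, in Rarres2-/-, 167, 350.5 and 417 FPKM. Its WT libraries lay within a narrow range, and Rarres2-/- replicates 5 and 6 were above and replicate 4 below all of them. Without replicate 4 its difference was 0.56 (SE 0.128, adjusted p = 0.355 by limma), the largest after that of Ndufs1. All 11 genes of this arm were lowest in Rarres2-/- replicate 4.

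Ndufa4 and Ndufa4l2 carry the family name but stand outside the enzyme. The NDUFA4 protein, at first assigned to complex I, is now counted as a subunit of cytochrome c oxidase, and Ndufa4l2 is its hypoxia-inducible paralogue, a known target of HIF-1. Ndufa4 (chromosome 6, 11900292 to 11907497, minus strand) was the most abundant member, at 1632, 1309 and 1328 FPKM in WT and, in Rarres2-/-, 633, 1632 and 1889 FPKM, a difference of -0.18 (SE 0.432). It followed the other members across libraries. Ndufa4l2 (chromosome 10, 127514967 to 127517154, plus strand) did not: it was at 13.1, 4.59 and 4.69 FPKM in WT and, in Rarres2-/-, 6.78, 3.44 and 4.04 FPKM, highest in WT replicate 1 and next in Rarres2-/- replicate 4. Its difference was -0.46 (SE 0.403, adjusted p = 0.999 by limma) -0.01 without WT replicate 1 and -0.69 (SE 0.446, adjusted p = 0.601 by limma) without Rarres2-/- replicate 4.

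The same 2 libraries were highest in endothelial markers. The summed level of Pecam1, Cdh5, Kdr and Tie1 was 162, 21.7 and 19.4 FPKM in WT and, in Rarres2-/-, 103, 22.0 and 24.3 FPKM, with all 4 of 4 markers above 0 in every library. The part of vascular cells in the level of Ndufa4l2 was not tested.

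The Ndufaf assembly factors were far less abundant than the subunits, with a median level of 27.9 FPKM. Ndufaf1 belongs to the assembly complex of the membrane arm and Ndufaf2 occupies the place of Ndufa12 until late in assembly. Ndufaf1 (chromosome 2, 119655446 to 119662827, minus strand) was at 17.2, 22.2 and 20.3 FPKM in WT and, in Rarres2-/-, 16.1, 26.8 and 28.2 FPKM, a difference of 0.21 (SE 0.238). Ndufaf2 (chromosome 13, 108002715 to 108158623, minus strand) was at 47.8, 38.6 and 34.0 FPKM in WT and, in Rarres2-/-, 18.9, 46.1 and 49.5 FPKM, a difference of -0.17 (SE 0.369). The pair differed in WT replicate 1, the lowest WT library for Ndufaf1 and the highest for Ndufaf2.

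Ndufaf3 and Ndufaf4 act together in building the Q module. Ndufaf3 (chromosome 9, 108565537 to 108567434, minus strand) was at 39.4, 36.4 and 27.2 FPKM in WT and, in Rarres2-/-, 23.2, 33.8 and 43.7 FPKM, a difference of -0.06 (SE 0.262). Ndufaf4, with the longest transcript of the family at 3632 bases (chromosome 4, 24898083 to 24905001, plus strand), was at 8.70, 9.13 and 8.23 FPKM in WT and, in Rarres2-/-, 6.12, 13.0 and 11.5 FPKM, a difference of 0.15 (SE 0.259). All 4 factors were lowest in Rarres2-/- replicate 4, with a median deviation of -0.51, against -0.84 for the family. With the trend across transcript lengths removed, as described next, these values were -0.35 and -0.41. Without replicate 4 all 4 were higher in Rarres2-/- (median difference 0.35). Assembly factors with other names, such as Ecsit, Acad9 and Tmem126b of the membrane-arm assembly complex, had 9 of 11 tested genes higher and 2 lower in Rarres2-/-, none past the test, with a median difference of 0.11, and 11 of 11 higher without replicate 4 (0.35). Their median deviation in Rarres2-/- replicate 4 was -0.43, and 9 of the 11 were lowest there.

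Complex I genes have short transcripts. The GENCODE transcript used for each gene had a median length of 868 bases over members and 2873 bases over genes tested, and 26 of 42 members were shorter than 1000 bases, against 7.08% of those genes. In Rarres2-/- replicate 4, the log2 deviation over all genes increased by 0.16 per doubling of length, and in WT replicate 1 and Rarres2-/- replicate 6 it decreased, with slopes of -0.06 and -0.08. In the other 3 libraries the slope lay between -0.02 and 0.01. A smooth curve of deviation on length, fitted to all genes in each library, put the median member at -0.43 in Rarres2-/- replicate 4, 0.23 in Rarres2-/- replicate 6 and 0.14 in WT replicate 1.

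**Figure D3:**
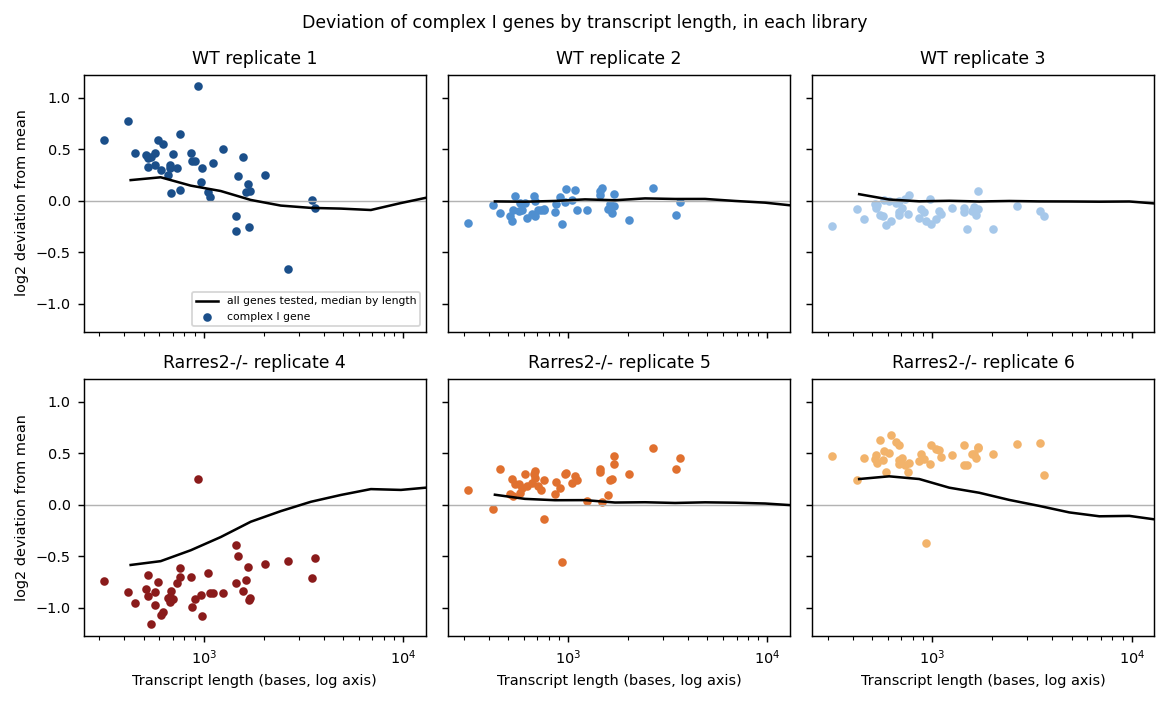
Deviation of each complex I gene from its own mean log2(FPKM + 1) against transcript length (bases, log axis) in each of the 6 libraries, with the median of all genes tested by length as a black line. In Rarres2-/- replicate 4 the line falls towards short transcripts and most complex I genes lie below it, and in Rarres2-/- replicates 5 and 6 most lie above it.

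With that curve subtracted, the members' median deviation was 0.17, -0.08 and -0.10 in WT replicates 1, 2 and 3 and -0.41, 0.17 and 0.24 in Rarres2-/- replicates 4, 5 and 6. In linear terms, Rarres2-/- replicate 4 lay at 0.558 of the members' mean level as deposited and at 0.752 of it with the curve subtracted, so the trend took up part of the distance and a part remained. Of the 42 members, 22 then had a higher and 20 a lower mean in Rarres2-/-, where 48.2% of all genes were higher, and the median difference was 0.01. With the curve fitted on the longest transcript of each gene, 16 were higher and the median difference was -0.03. The groups were separated in 1 member, Ndufa1 (-0.25, lower in Rarres2-/-), against 11.4% of all genes, and 0 members passed the adjusted threshold by limma.

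Within the family, the direction of the difference went with length as deposited. Of the 14 members with the shortest transcripts (315 to 678 bases), 0 were higher in Rarres2-/- (median difference -0.16). Of the 14 of middle length (680 to 1079 bases), 1 was higher (-0.13), and of the 14 longest (1110 to 3632 bases), 10 were higher (0.07). With the curve subtracted, the counts were 7, 5 and 10. In WT replicate 1 the median deviation was 0.43, 0.32 and 0.09 in the short, middle and long members, a steeper change with length (slope -0.24) than over all genes. In Rarres2-/- replicate 4 all of them were low, at -0.90, -0.85 and -0.72, and with the curve subtracted the long members were the lowest, at -0.29, -0.35 and -0.53.

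The direction of the genotype difference turned when Rarres2-/- replicate 4 was left out. Without it, 39 of 42 members had a higher mean in Rarres2-/-, against 53.2% of all genes, with a median difference of 0.31 (0.02 over all genes). At an unadjusted p under 0.05, 12 members were higher, against 8.2% of all genes, and in 15 members both remaining Rarres2-/- libraries lay above all WT libraries, against 21.5%. None passed the adjusted threshold by limma, the smallest adjusted p being 0.355 (Ndufab1 and Ndufs4). With the length curve subtracted as well, the median difference was 0.19 and 19 members were separated and higher, against 18.9% of all genes. Marker lists also shifted without replicate 4. White adipocyte markers went from 6 of 7 higher in Rarres2-/- (median difference 0.25) to 7 of 7 (0.43), and brown and beige markers from 4 of 7 (0.18) to 6 of 7 (0.30). Their part in the levels of complex I genes was not tested.

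**Figure D4:**
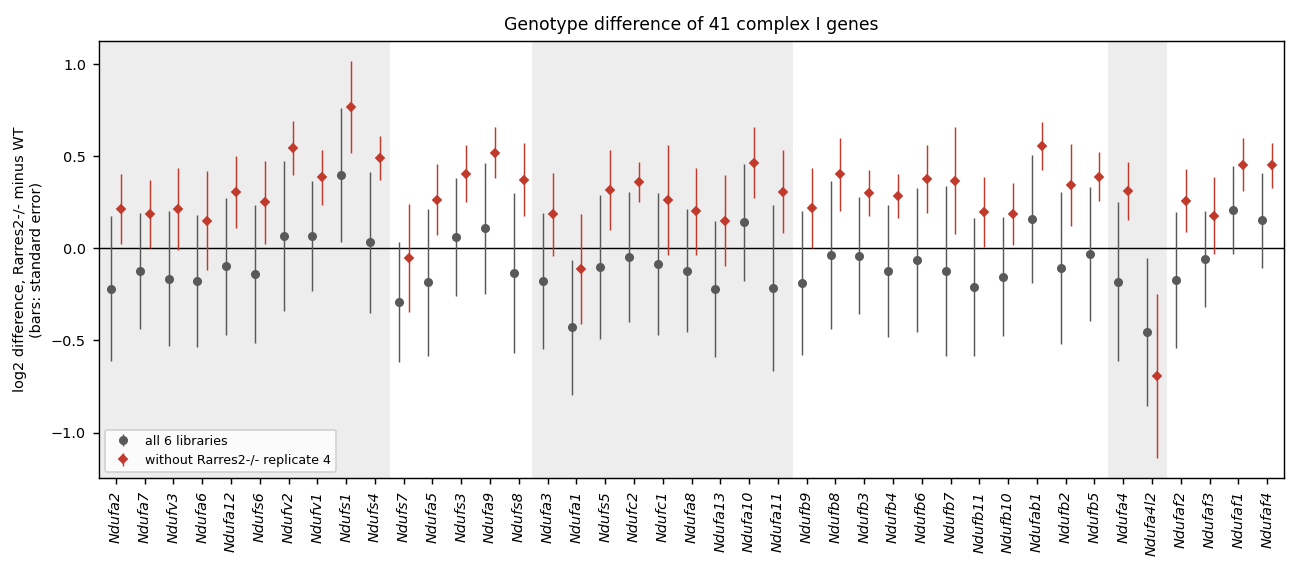
Difference of 41 of the 42 complex I genes between genotypes (Rarres2-/- minus WT, log2 scale, bars of 1 standard error), from all 6 libraries (grey circles) and without Rarres2-/- replicate 4 (red diamonds). Shaded bands separate the modules in the order of the text. From all libraries 31 of 41 points lie below 0, and without replicate 4 the 3 points below 0 are Ndufa1, Ndufs7 and Ndufa4l2.

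Leaving out WT replicate 1 as well, 39 members had both Rarres2-/- libraries above both WT libraries, against 31.7% of all genes. The length trend was not removed in this fit. The length curve over 6 libraries put the median member at 0.06 and 0.23 in Rarres2-/- replicates 5 and 6. In WT replicates 2 and 3 it lay at -0.001 and 0.003. Without WT replicate 1 and Rarres2-/- replicate 4 the median difference was 0.41, and 31 members were higher at an unadjusted p under 0.05, against 13.3% of all genes. With limma, 0 of 42 members passed the adjusted threshold, and the smallest adjusted p was 0.0668 (Ndufa10). In the 4 libraries kept, the macrophage markers were 7 of 7 lower in Rarres2-/- (median difference -0.93). The fibroblast and progenitor markers were 6 of 6 lower (-1.22). Each of these was at an unadjusted p under 0.05 by limma, as were 1270 of all 11086 genes in that direction. White adipocyte markers were 7 of 7 higher (0.43), as were 7 of 7 brown and beige markers (0.40). Of the skeletal muscle markers tested, 9 of 9 were higher (0.81), where 4 of 9 were higher with all 6 libraries (-0.12). Endothelial markers were 2 of 4 higher (0.05). With all 6 libraries the macrophage and fibroblast medians were -0.24 and -0.18, with 0 of these markers at an unadjusted p under 0.05. The part of these cell types in the complex I result was not tested. Leaving out Rarres2-/- replicate 6 moved the family the other way, to 3 higher members and a median difference of -0.36. When limma weighted the libraries by their agreement with the fit, 2 members passed, against 13.7% of all genes: Ndufa10 (0.51, SE 0.122, adjusted p = 0.0380) and Ndufaf4 (0.49, SE 0.114, adjusted p = 0.0365). That fit gave Rarres2-/- replicate 5 a weight of 6.19, replicate 6 a weight of 0.736 and replicate 4 a weight of 0.179. WT replicates 1, 2 and 3 had weights of 0.192, 2.81 and 2.27. The lowest weights thus fell on WT replicate 1 and Rarres2-/- replicate 4, the libraries left out together above. Both genes were picked out after their values were seen.

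The other respiratory complexes had values much like those of complex I. Of 38 genes of complexes II to V, 14 were higher and 24 lower in Rarres2-/- (median difference -0.06), 0 passed the test, and 37 were lowest in Rarres2-/- replicate 4. Their median deviation there was -0.86 as deposited and -0.40 with the length curve subtracted, and 38 of 38 were higher in Rarres2-/- without replicate 4 (median difference 0.38). Without WT replicate 1 as well, 38 of 38 had both Rarres2-/- libraries above both WT libraries, as did 39 of the 42 complex I genes and 31.7% of all genes. Cytosolic ribosomal protein genes are also short (median 830 bases) and abundant (median 698 FPKM). As deposited, most were likewise lowest in Rarres2-/- replicate 4 and lower in Rarres2-/-. Their values differed from those of complex I with the length curve subtracted and without replicate 4. Of 82 genes, 78 were lowest in Rarres2-/- replicate 4 with a median deviation of -0.53, which was -0.08 with the length curve subtracted, and 5 were higher and 77 lower in Rarres2-/- (median difference -0.24). With the length curve subtracted, 7 of 82 were higher (median difference -0.14), so most stayed lower in Rarres2-/-. Without replicate 4, 32 of 82 were higher (-0.05). No test compares these lists.

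Genes that encode regulators of respiratory genes were not low together in Rarres2-/- replicate 4. Of 11 tested genes, among them Ppargc1a, Nrf1, Gabpa, Esrra, Tfam and Yy1, 5 were higher and 6 lower in Rarres2-/- (median difference -0.02), and 0 passed the test. Their transcripts were longer than those of complex I genes (median 3755 bases). Their median deviation in replicate 4 was 0.13 as deposited and 0.08 with the length curve subtracted. Esrra, the estrogen-related receptor alpha gene, was at 51.9, 39.2 and 32.4 FPKM in WT and, in Rarres2-/-, 26.1, 47.9 and 49.9 FPKM, lowest in replicate 4 as the complex I genes were. Nrf1, which encodes the factor of the core shown above, was at 3.88, 4.19 and 3.78 FPKM in WT and, in Rarres2-/-, 4.87, 3.81 and 3.0 FPKM, and was highest there. Yy1 differed little between libraries, from 28.2 to 31.9 FPKM.

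**Figure D5:**
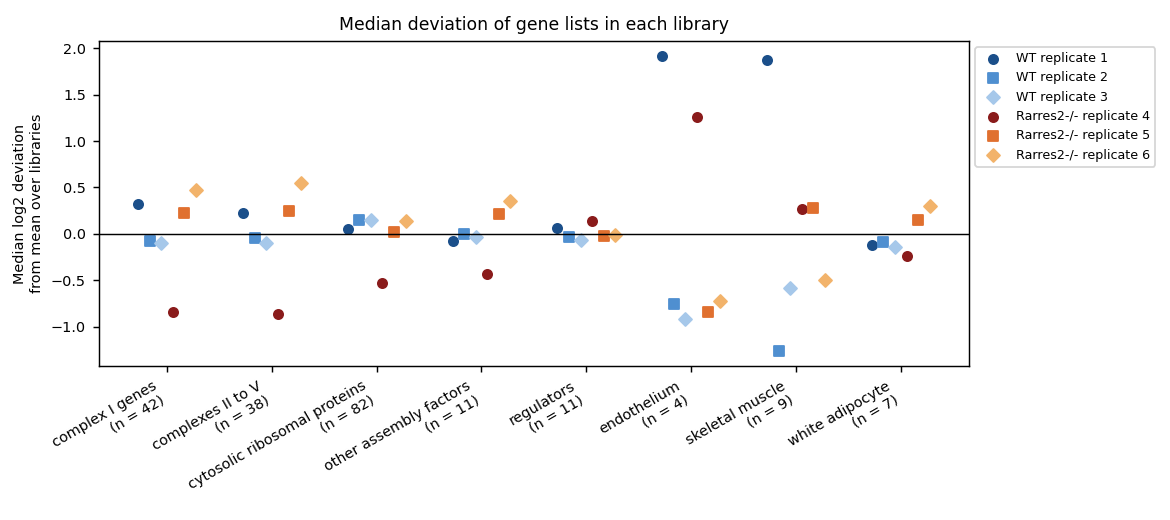
Median deviation from the mean over libraries (log2 scale) of complex I genes and other gene lists in each of the 6 libraries, with the number of genes in brackets. Complex I and complexes II to V lie close to each other in every library, with Rarres2-/- replicate 4 at -0.84 and -0.86, while the endothelial and skeletal muscle markers are highest in WT replicate 1.

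Markers of the cells that the depot could hold also differed between libraries. White adipocyte markers (7 of 7 above 0 in every library) summed to 49030, 41716 and 50574 FPKM in WT and, in Rarres2-/-, 30005, 61759 and 63675 FPKM, and brown and beige markers (7 of 7) to 1565, 1490 and 1377 FPKM in WT and, in Rarres2-/-, 770.3, 1420 and 2019 FPKM. Both sums were lowest in Rarres2-/- replicate 4 and highest in replicate 6, as complex I was. Short genes that are respiratory genes themselves (Cox7a1, Cox8b) or very abundant (Fabp4) dominate these sums. The median deviation in replicate 4 was -0.24 over the white and 0.12 over the brown and beige markers, and 0.04 and 0.31 with the length curve subtracted. Ucp1, the uncoupling protein of heat-producing fat, was at 43.1, 46.6 and 56.1 FPKM in WT and, in Rarres2-/-, 61.5, 62.8 and 74.6 FPKM, so it was not low in replicate 4.

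Skeletal muscle, a tissue rich in complex I, was represented by 10 markers (Myh2 at 0 in 2 libraries, the others above 0 in all) that summed to 1616, 200.1 and 296 FPKM in WT and, in Rarres2-/-, 485, 545 and 319 FPKM, highest in WT replicate 1. Macrophage markers (7 of 7) summed to 258, 975 and 984 FPKM in WT and, in Rarres2-/-, 509.8, 615 and 457 FPKM, and those of fibroblasts and progenitors (6 of 6) to 872, 4254 and 3053 FPKM in WT and, in Rarres2-/-, 1946, 1687 and 1676 FPKM, each lowest in WT replicate 1. Lymph node markers (3 of 6 with a mean of at least 1 FPKM) summed to 0.926 to 22.3 FPKM, and epithelial markers (0 of 5) to at most 1.4 FPKM, with Krt8, Krt18, Krt14 and Krt5 each at 0 in some libraries. The part of these cells in the levels of complex I genes was not tested.

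The genes outside the family whose log2 values followed the members' mean most closely over the 6 libraries were Zswim7, Cox7a2 and Dctn3, with Pearson correlations of 0.999, 0.998 and 0.998. These are descriptions over 6 libraries that share the trends given above. Cox7a2 encodes a subunit of cytochrome c oxidase and was at 548, 401 and 398 FPKM in WT and, in Rarres2-/-, 207, 531 and 629.7 FPKM. Zswim7, a gene of DNA repair by homologous recombination, was at 25.0, 19.6 and 19.0 FPKM in WT and, in Rarres2-/-, 10.9, 23.9 and 30 FPKM, and Dctn3, a dynactin subunit, at 133, 110.0 and 104 FPKM in WT and, in Rarres2-/-, 74.6, 127 and 143 FPKM.

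Some levels are less certain than others. Of the 42 members, 19 share exonic bases with another gene in GENCODE M21, and 13 with a protein-coding gene that has a row of its own, each time on the opposite strand. The largest such overlaps were 616 bases between Ndufb5 and Mrpl47 and 375 bases between Ndufa13 and Tssk6. Whether fragments were counted by strand, and how those that map to near-identical copies or pseudogenes were handled, was not stated in the sources used here.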

How the data were processed

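Per the file headers, the authors deposited RNA-seq values of 6 libraries as FPKM, each in its own table. In the table of WT replicate 3 the sample's name stands where the others give the unit, and it was read as FPKM from its scale. Bowtie and mm10 are listed in the submitters' processing notes. Which program computed FPKM, with which transcript lengths and versions, was not stated in the sources used here. FPKM holds no counts, so absolute depth is unknown and no counting interval can be given.

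The 11086 genes that averaged 1 FPKM or more were tested on log2(FPKM + 1) with limma 3.58.1 in R 4.3.3 (genotype as the only term, eBayes with trend, two-sided, Benjamini-Hochberg over all 11086). The 737 rows without a symbol (0.793% to 4.91% of the sums) stayed out. The scripts were tested on simulated data. Lengths came from GENCODE M21 transcripts, preferring those linked to RefSeq, for 94.6% of tested genes, and positions are those of GRCm38, the assembly that mm10 stands for. The length trend was a loess (span 0.3) of each gene's log2 deviation from its mean on log2 length, fitted per library over all tested genes.

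The members and gene lists were chosen with earlier results of these data known, so no list was given a p. Named genes are the nuclear core subunits, the Ndufa4 pair, Ndufab1, all Ndufaf rows, the 3 smallest p in each direction, the 3 highest and 3 lowest means, the longest and shortest transcripts and the 3 genes outside the family most like the members. Some genes that this rule takes are left out of the text and of labelled plots, and stay in all counts. Ndufb1, Ndufaf5, Ndufaf6, Ndufaf7 and Ndufaf8 had no row under those symbols. Ndufaf8 stands under an older symbol, 1810043H04Rik, at 42.7 to 87.2 FPKM, and was not taken by the rule. Alternatives were quantile and upper-quartile scaling, a pseudocount of 0.1, no filter, 5 FPKM in 3 libraries, no eBayes trend, array weights, removal of length or of length and GC trends, and each library left out. Leaving out WT replicate 1 and Rarres2-/- replicate 4 together, the longest transcript as length, and the length trend removed with replicate 4 left out were added after the data were seen. Promoters are from RefSeq on GRCm38.p6.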

Additional observations from a re-analysis of the deposited data

How the results depend on the processing

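No paired analysis was possible because WT replicates carry the numbers 1 to 3 and Rarres2-/- replicates 4 to 6, with none shared. With array weights 2 complex I genes passed the threshold, and 0 in every other fit. Over all genes, 1524 passed with array weights, 68 without WT replicate 1 and Rarres2-/- replicate 4 together, 1 each with 5 FPKM in 3 libraries, upper-quartile scaling and the length trend removed, and 0 to 1 with each library left out. Members with a higher mean numbered 22 with the length trend removed, 22 with length and GC trends removed, 41 without both libraries, 39 with the length trend removed and replicate 4 left out, and 3 to 39 with each library left out. Separated members numbered 1 with the length trend removed, 1 with the trend from the longest transcript, 40 without both libraries, 20 with the length trend removed and replicate 4 left out, and 0 to 16 with each library left out. Over all 11086 genes, 3510 were separated and higher and 2933 separated and lower without both libraries. These numbers were 2100 and 1732 with the length trend removed and replicate 4 left out, and 2380 and 1432 without replicate 4, the fit with 16 separated members. With the length trend removed 11.4% of all genes were separated. The median difference was 0.0080 with the length trend removed, 0.018 with length and GC trends removed, 0.29 with array weights, 0.41 without both libraries, 0.19 with the length trend removed and replicate 4 left out, and -0.36 to 0.31 with each library left out. The cause of these shifts was not tested.

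Single genes changed sign in the same settings. With array weights the difference was 0.0018 for Ndufa1, 0.19 for Ndufa3, 0.28 for Ndufa4, 0.29 for Ndufaf2, 0.093 for Ndufaf3, 0.24 for Ndufb9, 0.35 for Ndufc1 and 0.32 for Ndufs8. Without both libraries it was 0.16 for Ndufa1, 0.36 for Ndufa3, 0.41 for Ndufa4, 0.39 for Ndufaf2, 0.28 for Ndufaf3, 0.40 for Ndufb9, 0.54 for Ndufc1, 0.20 for Ndufs7 and 0.50 for Ndufs8. With the length trend removed and replicate 4 left out it was 0.065 for Ndufa3, 0.19 for Ndufa4, 0.14 for Ndufaf2, 0.090 for Ndufaf3, 0.11 for Ndufb9, 0.14 for Ndufc1 and 0.27 for Ndufs8. Ndufc1 was at 0.13 with the length trend removed and 0.12 with length and GC trends removed. Ndufv2 was at -0.017 with quantile normalization. With each library left out in turn, differences ran from -0.45 to 0.18 for Ndufa3, -0.48 to 0.31 for Ndufa4, -0.10 to 0.56 for Ndufab1, -0.41 to 0.26 for Ndufaf2, -0.27 to 0.18 for Ndufaf3, -0.038 to 0.45 for Ndufaf4, -0.46 to 0.22 for Ndufb9, -0.34 to 0.26 for Ndufc1, -0.19 to 0.41 for Ndufs3, -0.46 to 0.37 for Ndufs8, -0.14 to 0.39 for Ndufv1 and -0.19 to 0.54 for Ndufv2. Unknown absolute depth limits the precision of the low members, and 3 libraries a genotype limit all of them.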
